A study of Mus musculus with 4 samples.

Results

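The stretch of mouse chromosome 6 that holds Apobec1, Gdf3, Dppa3, Nanog and Slc2a3 was examined for CTCF binding in mouse embryonic stem cells (mESC). The 5 genes are neighbours, and the members described here are every CTCF summit within 20 kb of one of them. Summits of different libraries that lay within 100 bp of each other were counted as 1 position. This gave 49 positions of 138181 in the whole series, from 40 summits in the Inv:Del(CBS7-10) library, 30 in the Inv library, 29 in the Del(CBS8-10) library and 36 in the Ins library. Among 49943 RefSeq genes, the 5 lie in the order Apobec1 (122577792 to 122603024), Gdf3 (122605403 to 122610087), Dppa3 (122626424 to 122630271), Nanog (122707489 to 122714633) and Slc2a3 (122727809 to 122802363), with Foxj2 after them. The stretch is the 5 genes' own spans and flanks, from 122557792 to 122822363 on chromosome 6 of mm10, without the 37.2 kb between Dppa3 and Nanog that are farther than 20 kb from both.

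CTCF is a zinc-finger protein that binds DNA at insulator sites and halts the cohesin complex, which extrudes chromatin loops. Nanog encodes a homeodomain transcription factor that sustains the pluripotent state. Dppa3 (Stella) encodes a factor of the oocyte and early embryo that shields DNA methylation marks, and Gdf3 a growth factor of the TGF-beta family related to Nodal. In embryonic stem cells these 3 genes are active together, and distal enhancers lie on both sides of Nanog. Slc2a3 encodes the glucose transporter GLUT3, and Apobec1 the cytidine deaminase that edits apolipoprotein B mRNA.

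The data come from CUT&RUN, in which an antibody-guided nuclease cuts out the DNA around CTCF, with 1 library for each of 4 mESC genotypes. All 4 lines share a HoxB deletion (Del) on 1 chromosome 11 and, opposite it, the allele Del(i9-13) with the inserted CTCF-site array, Ins(CBS5-10). In the Inv:Del(CBS7-10) line the array is inverted and lacks CBS7-10, in the Inv line it is inverted, in the Del(CBS8-10) line it keeps its direction and lacks CBS8-10, and in the Ins line it is complete. No edit named in the labels lies on chromosome 6. The labels do not say whether a line is 1 clone, and CTCF binding does not measure whether a gene was expressed.

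The lists held 99177 peaks in the Inv:Del(CBS7-10) library, 66365 in Inv, 74555 in Del(CBS8-10) and 93969 in Ins. The sources used here do not state the read depth. The commonest local background of a list, in fragments per position, stood in for it and was 1.327 in the Inv:Del(CBS7-10) library, 0.19 in Inv, 0.553 in Del(CBS8-10) and 0.858 in Ins. The Inv library was thus the thinnest. With 1 library per genotype there is no spread between replicates, no test between genotypes was made and no p-value is given. Intervals cover counting error only. The scales used are −log10 q, the authors' value for how far a peak stands above the background of its own library, and the pileup, the number of fragments over the summit, recovered from the authors' fold and −log10 p.

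Every one of the 5 genes had CTCF summits within 20 kb in every library. This was common, since 78.6% of 46856 genes had one in the Inv:Del(CBS7-10) library, 71.3% in Inv, 74.7% in Del(CBS8-10) and 77.3% in Ins. The number of positions was higher than for most genes. Slc2a3, whose span of 74555 bp is the longest of the 5, had 11 positions found in all 4 libraries, a number reached by 0.986% of 20278 protein-coding genes. Apobec1 had 7 (5.76% of coding genes had at least as many), Gdf3 had 6 (9.63%), and Dppa3 and Nanog had 5 each (16.1%). The median over coding genes was 2. Neighbouring genes share positions here: 18 of the 49 lay within 20 kb of at least 2 of the 5 genes.

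Of the 49 positions, 25 had a summit in all 4 libraries (51.0%, 95% Wilson interval 37.5 to 64.4), against 33.0% of 119359 positions on autosomes other than chromosome 11. They made up 25 of 40 positions of the Inv:Del(CBS7-10) library (62.5%, interval 47.0 to 75.8, against 45.9% of all its positions), 25 of 30 in Inv (83.3%, 66.4 to 92.7, against 70.0%), 25 of 29 in Del(CBS8-10) (86.2%, 69.4 to 94.5, against 61.0%) and 25 of 36 in Ins (69.4%, 53.1 to 82.0, against 48.6%). The positions were not matched on strength with those of the genome, and neighbouring positions are not independent. A further 3 positions were found in 3 libraries, 5 in 2 and 16 in 1. In the 25 shared positions the 4 summits lay within a median of 22 bp of each other, and within 30 bp in 18 of them.

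**Figure D1:**
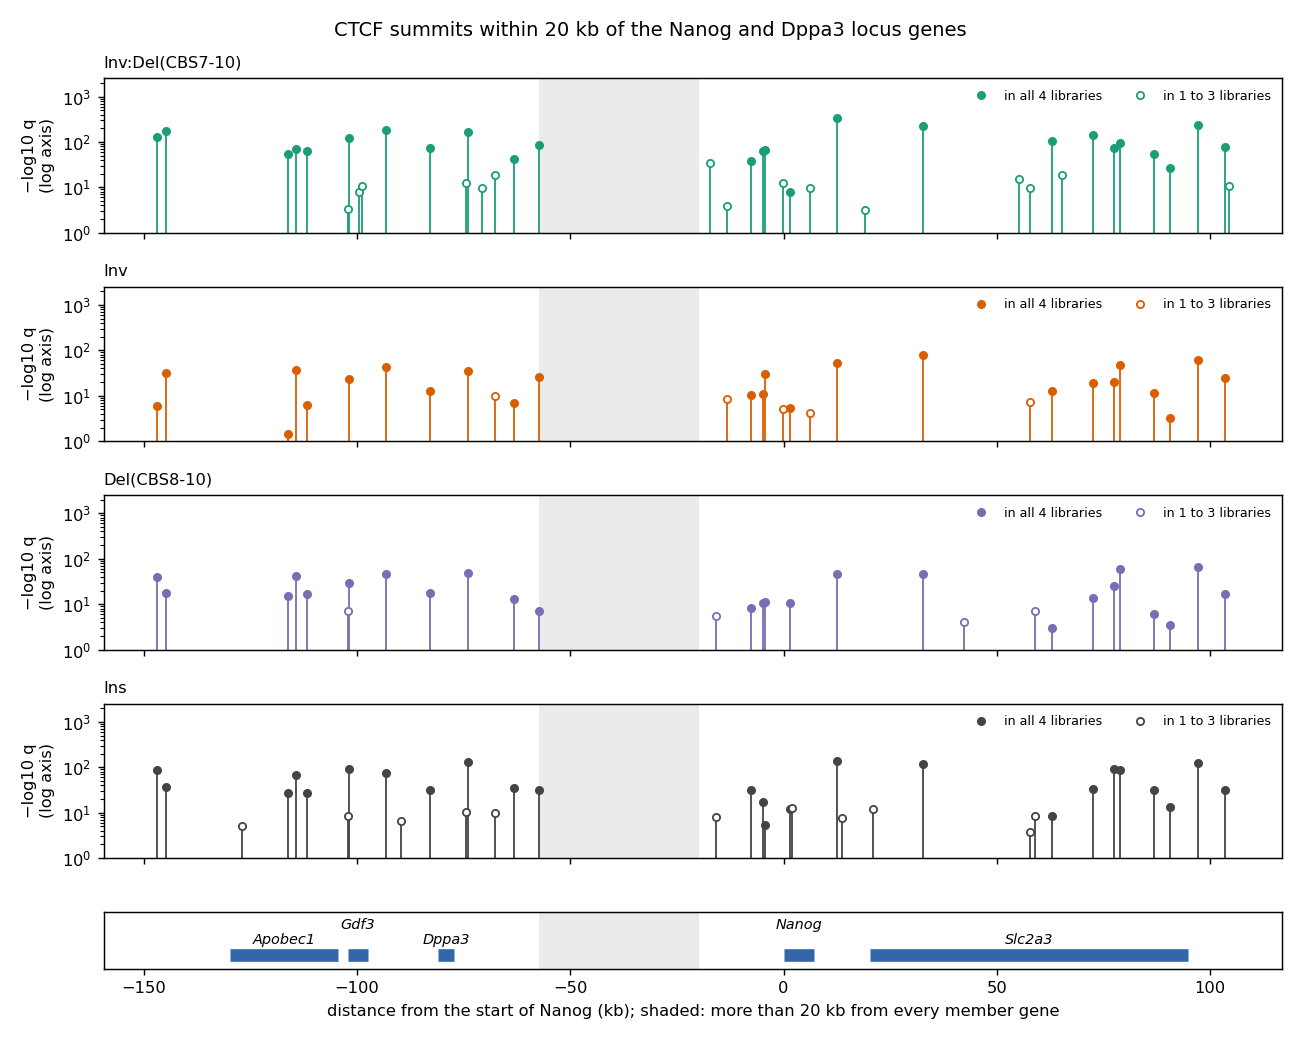
CTCF summits within 20 kb of the 5 genes in each library. Each line is a summit, its height the authors' −log10 q on a log axis, placed by its distance from the start of Nanog in kb; filled points are positions found in all 4 libraries and open points those in 1 to 3, gene spans are drawn as bars, and the grey stretch is farther than 20 kb from every member gene. The 25 filled positions recur in each row, while the open ones, 24 in all, are mostly low.

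The positions were unevenly spread along 251.3 kb, and 24 of the 49 lay within the span of a member gene. Slc2a3 held 13 of these, Apobec1 4, Nanog 4 and Gdf3 3. Dppa3 had no summit within its span in any library. The median spacing between neighbouring positions was 3.69 kb over all 49 and 7.17 kb over the 25 shared ones, whose smallest spacing was 0.42 kb.

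Just 5 positions ranked among the 20000 strongest peaks of each library. In order along the chromosome they were 122614231, between Gdf3 and Dppa3; 122633597, just past Dppa3; 122720153, between Nanog and Slc2a3; 122740163, within Slc2a3; and 122804656, just past the far end of Slc2a3. The distances between them were 19.4, 86.6, 20.0 and 64.5 kb. None lay within the span of Nanog, Dppa3, Gdf3 or Apobec1. The Gdf3 position 122605666 fell short in the thin Inv library only, at percentile 69.7. Its percentile was 81.1 in Inv:Del(CBS7-10), 77.4 in Del(CBS8-10) and 89.4 in Ins.

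Within Apobec1, 3 shared positions stood at 122591324, 122593097 and 122595809, spaced by 1.77 and 2.71 kb. The middle position was the strongest of them in each library. Its −log10 q was 70.0 in Inv:Del(CBS7-10), 36.7 in Inv, 41.3 in Del(CBS8-10) and 68.2 in Ins, with pileups of 99, 39, 53 and 88 in those libraries. At 122591324 the −log10 q was 54.7 in Inv:Del(CBS7-10), 1.44 in Inv, 15.4 in Del(CBS8-10) and 26.7 in Ins. The Inv summit there was among the weakest peaks of its list (percentile 0.133), and the 4 summits spread over 133 bp. At 122595809 it was 62.5 in Inv:Del(CBS7-10), 6.30 in Inv, 16.6 in Del(CBS8-10) and 27.6 in Ins. These −log10 q values depend on depth. On the scaled log2 pileup described below, Inv was the highest of the 4 libraries at the middle position, at 0.89. It was the lowest at 122591324 (−1.58) and at 122595809 (−0.69). At 122595809 its difference from Ins was −0.34, with a 95% counting interval of −1.35 to 0.56. A single weak summit at 122580422 was found in Ins alone (−log10 q 5.07). No summit lay in the 300-base RefSeq promoter window of Apobec1, where the nearest one was 2876 bp from the start site in Inv:Del(CBS7-10), 3201 bp in Inv, 2790 bp in Del(CBS8-10) and 2838 bp in Ins.

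Gdf3 carried a shared position inside its span, at 122605666. Its −log10 q was 119 in Inv:Del(CBS7-10), 22.9 in Inv, 29.8 in Del(CBS8-10) and 89.4 in Ins. A weaker summit 0.38 kb before it, at 122605282, lay 0.12 kb outside the gene and was found in Inv:Del(CBS7-10) (3.26), Del(CBS8-10) (7.06) and Ins (8.25). In Ins both summits belonged to 1 peak of 882 bp. The Inv list lacked the weaker summit, and 73.2% of 8686 Ins peaks of like −log10 q on other autosomes were missing from that list too. Weak summits at 122608026 and 122608647, also in Gdf3, were found in Inv:Del(CBS7-10) alone (8.09 and 10.5), and another at 122617732, between Gdf3 and Dppa3, in Ins alone (6.70).

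Dppa3 lay between strong positions and held none itself. On the Gdf3 side stood 122614231, with pileups of 193 in Inv:Del(CBS7-10), 43 in Inv, 50 in Del(CBS8-10) and 88 in Ins. The nearest shared position to the gene was 122624705, 1.72 kb before it, with pileups of 86 in Inv:Del(CBS7-10), 14 in Inv, 22 in Del(CBS8-10) and 38 in Ins. On the far side, 3.33 kb past the gene, 122633597 had 179 in Inv:Del(CBS7-10), 33 in Inv, 57 in Del(CBS8-10) and 141 in Ins. The position nearest to Dppa3 was thus the lowest of the 3 in each library.

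Past Dppa3, 2 weaker shared positions followed before the gap. At 122644382, within the pseudogene Gm8460, the −log10 q was 42.2 in Inv:Del(CBS7-10), 6.82 in Inv, 12.9 in Del(CBS8-10) and 35.0 in Ins. At 122650115, which is 19.84 kb from Dppa3 and the member nearest to the 20 kb limit, it was 85.3 in Inv:Del(CBS7-10), 25.9 in Inv, 7.17 in Del(CBS8-10) and 32.3 in Ins. Around them, 122632964 was found in Inv:Del(CBS7-10) (12.6) and Ins (10.2), 122636800 in Inv:Del(CBS7-10) alone (9.43), and 122639921 in Inv:Del(CBS7-10) (18.5), Inv (9.95) and Ins (9.70). In the excluded stretch between the genes lay 122669606, 37.88 kb before Nanog, which was stronger than any member in each library: its −log10 q was 382 in Inv:Del(CBS7-10), 86.8 in Inv, 99.6 in Del(CBS8-10) and 209 in Ins.

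Nanog had 15 positions within 20 kb, the fewest of them shared in proportion, with 5 found in all 4 libraries. Before the gene, 122699857 had −log10 q of 37.6 in Inv:Del(CBS7-10), 10.3 in Inv, 8.38 in Del(CBS8-10) and 32.0 in Ins. Then came a close pair, 122702664 and 122703088, at 4.83 and 4.40 kb before the gene. The pair shared 1 peak of 817 bp in Inv:Del(CBS7-10), 634 bp in Inv and 699 bp in Del(CBS8-10), and formed separate peaks in Ins. At 122702664 the pileup was 116 in Inv:Del(CBS7-10), 23 in Inv, 25 in Del(CBS8-10) and 41 in Ins. At 122703088 it was 118 in Inv:Del(CBS7-10), 41 in Inv, 26 in Del(CBS8-10) and 24 in Ins. The second summit of the pair was the lower one in Ins only. The pileups of the pair were nearly equal in Inv:Del(CBS7-10) and Del(CBS8-10), so their order there is not settled.

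At the start of Nanog itself, a weak summit was found in both lines with an inverted array and in neither of the others. Its summit was 122707426 in Inv:Del(CBS7-10), 63 bp before the start site of the RefSeq promoter window, and 122707466 in Inv, 23 bp before it. The −log10 q was 12.3 in Inv:Del(CBS7-10) and 5.06 in Inv, and the folds of 3.60 and 4.28 were low. In Inv:Del(CBS7-10) 49 fragments stood over a local background of 12.9, and in Inv 15 over 2.74. Of 7908 Inv:Del(CBS7-10) peaks with a like −log10 q on other autosomes, 62.7% were missing from the Del(CBS8-10) list and 40.2% from the Ins list, so an absence of this kind was frequent. A summit fell in 16.5% of 29076 promoter windows in Inv:Del(CBS7-10), 13.2% in Inv, 11% in Del(CBS8-10) and 17.9% in Ins.

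The promoter window of Nanog is printed because these summits fall inside it. It is a RefSeq window of 300 bases, 250 before and 50 after the start site, on the + strand of GRCm38.p6 at chr6:122707239-122707538. Capitals mark the 41 bases from the Inv:Del(CBS7-10) summit to the Inv summit.
Nanog promoter: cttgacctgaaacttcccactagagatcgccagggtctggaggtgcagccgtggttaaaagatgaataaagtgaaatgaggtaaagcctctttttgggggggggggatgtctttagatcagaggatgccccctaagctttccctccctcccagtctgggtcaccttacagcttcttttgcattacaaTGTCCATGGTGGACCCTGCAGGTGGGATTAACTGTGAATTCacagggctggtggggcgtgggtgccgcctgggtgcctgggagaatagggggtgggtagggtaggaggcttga
The window has a G and C content of 54.3%. It holds the paired octamer and Sox element TTTGCATTACAATG, at 122707414 to 122707427, which is known as a binding site of Oct4 and Sox2 in the Nanog promoter. The Inv:Del(CBS7-10) summit lies on the last bases of that element. A search on both strands for this element, with 1 base left free, found it in 2 of 32817 promoter windows (0.00609%), and both are overlapping windows of Nanog. The searched sequence is that of Nanog itself, so its presence there was fixed in advance. The count therefore does not measure how common other forms of the element are in promoters. The core of the CTCF motif was searched on both strands, with its fixed bases matched exactly. It was found in 8.61% of the promoter windows and in none of the 3 windows of Nanog and Apobec1. Near matches were not counted, so the search does not show that these windows lack CTCF-like sequence. A near match, which departs from the core at its last base only, lies within the capitals. How common such near matches are in promoters was not tested.

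Inside Nanog, the 1 shared position was 122709036. There the −log10 q was 8.07 in Inv:Del(CBS7-10), 5.25 in Inv, 10.8 in Del(CBS8-10) and 12.0 in Ins, the lowest maximum of the 25 shared positions. The other summits in the gene were each in 1 library: 122709439 in Ins (12.7), 122713592 in Inv:Del(CBS7-10) (9.62) and 122713715 in Inv (4.09). The summits at 122713592 and 122713715 lie 0.12 kb apart, just beyond the matching distance. Mouse Nanog has processed pseudogenes elsewhere in the genome, and the sources used here do not say how reads with several matches were treated. Some reads in the exons of Nanog may therefore be shared.

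Past Nanog, 122720153 was the strongest of the 49 positions in Inv:Del(CBS7-10) and Ins by −log10 q. It lies 5.52 kb past Nanog, before Slc2a3. The −log10 q was 335 in Inv:Del(CBS7-10), 51.4 in Inv, 45.6 in Del(CBS8-10) and 135 in Ins. Its pileup was 327 in Inv:Del(CBS7-10), 48 in Inv, 54 in Del(CBS8-10) and 149 in Ins, and the 4 summits lay within 10 bp. In Inv the strongest of the 49 was 122740163 and in Del(CBS8-10) it was 122804656. Between 122720153 and Slc2a3 lay weak summits in 1 library each, 122721305 in Ins (7.70) and 122726550 in Inv:Del(CBS7-10) (3.14), and 122728389, inside Slc2a3, was found in Ins alone (11.9).

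Before Nanog, a summit at 122690257 was found in Inv:Del(CBS7-10) alone, with a −log10 q of 34.2 and a pileup of 47. It was the strongest of the 16 positions found in a single library, of which the next had 19.0. Of 6861 Inv:Del(CBS7-10) peaks of like −log10 q, 32.5% were missing from the Inv list, 28.4% from the Del(CBS8-10) list and 11.8% from the Ins list. Close to it, 122691676 was found in Del(CBS8-10) (5.41) and Ins (7.94), and 122694212 in Inv:Del(CBS7-10) (3.80) and Inv (8.59).

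Slc2a3 held 7 shared positions in its span and was flanked by 122720153 on one side and 122804656 on the other. Within the gene, 122740163 had pileups of 252 in Inv:Del(CBS7-10), 80 in Inv, 58 in Del(CBS8-10) and 135 in Ins. Further in, 122780086 had 153 in Inv:Del(CBS7-10), 24 in Inv, 23 in Del(CBS8-10) and 52 in Ins. The pair 122785058 and 122786444, 1.39 kb apart, differed in its order: the pileups were 109 and 117 in Inv:Del(CBS7-10), 29 and 48 in Inv, 43 and 71 in Del(CBS8-10), and 121 and 112 in Ins. The summit at 122786444 was the higher of the pair except in Ins. The pileups of the pair were close in Ins and in Inv:Del(CBS7-10), and their order within a library was not tested.

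Between 122740163 and 122780086 the Slc2a3 positions were weak in most libraries. At 122770495 the −log10 q was 105 in Inv:Del(CBS7-10), 12.5 in Inv, 2.95 in Del(CBS8-10) and 8.27 in Ins. The percentile within its own list was 78.4 in Inv:Del(CBS7-10), 50.1 in Inv, 6.86 in Del(CBS8-10) and 30.0 in Ins. The 4 summits there spread over 131 bp, so they may not be a single site. Summits in 1 library stood at 122762665 (15.5) and 122772784 (19.0) in Inv:Del(CBS7-10) and at 122749695 in Del(CBS8-10) (4.04), while 122766486 was found in Del(CBS8-10) (7.25) and Ins (8.44) and 122765372 in Inv:Del(CBS7-10) (9.69), Inv (7.45) and Ins (3.67).

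Towards the far end of Slc2a3, 122794260 and 122798125 were low in pileup among the shared positions. The percentile of 122794260 within its own list was 65.8 in Inv:Del(CBS7-10), 46.9 in Inv, 28.7 in Del(CBS8-10) and 62.9 in Ins. The −log10 q at these positions was 54.1 and 26.1 in Inv:Del(CBS7-10), 11.5 and 3.26 in Inv, 5.98 and 3.46 in Del(CBS8-10), and 31.9 and 13.5 in Ins. Past the gene, 122804656 had 238 in Inv:Del(CBS7-10), 62.4 in Inv, 64.6 in Del(CBS8-10) and 125 in Ins, with the 4 summits within 5 bp. Its percentile ran from 95.4 in Inv:Del(CBS7-10) and Inv to 96.1 in Ins and 96.7 in Del(CBS8-10). The last shared position, 122810997, had 76.2 in Inv:Del(CBS7-10), 24.6 in Inv, 17.2 in Del(CBS8-10) and 32.1 in Ins. A summit at 122811931, past it, was found in Inv:Del(CBS7-10) alone (10.9). Just outside the limit, 122828286 within Foxj2 lay 25.92 kb from Slc2a3, with 128 in Inv:Del(CBS7-10), 10.2 in Inv, 30.6 in Del(CBS8-10) and 106 in Ins.

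Positions found in all 4 libraries had a higher median strength than the rest. The highest −log10 q reached in any library had a median of 85.3 over the 25 positions found in 4 libraries. It was 9.69 over the 3 found in 3, 8.59 over the 5 found in 2 and 9.53 over the 16 found in 1, without a steady rise. The measure itself favours shared positions, since it is a maximum over more libraries and a list admits peaks by their q. Among the 24 positions found in fewer than 4 libraries, 23 stayed under 20 in each library, the exception being 122690257. The deepest list held most of the single-library positions: 9 were in Inv:Del(CBS7-10) (14.9% of all positions of the genome were in that library alone), 1 in Inv (4.70%), 1 in Del(CBS8-10) (7.24%) and 5 in Ins (11.8%). The part of depth in this was not tested.

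**Figure D2:**
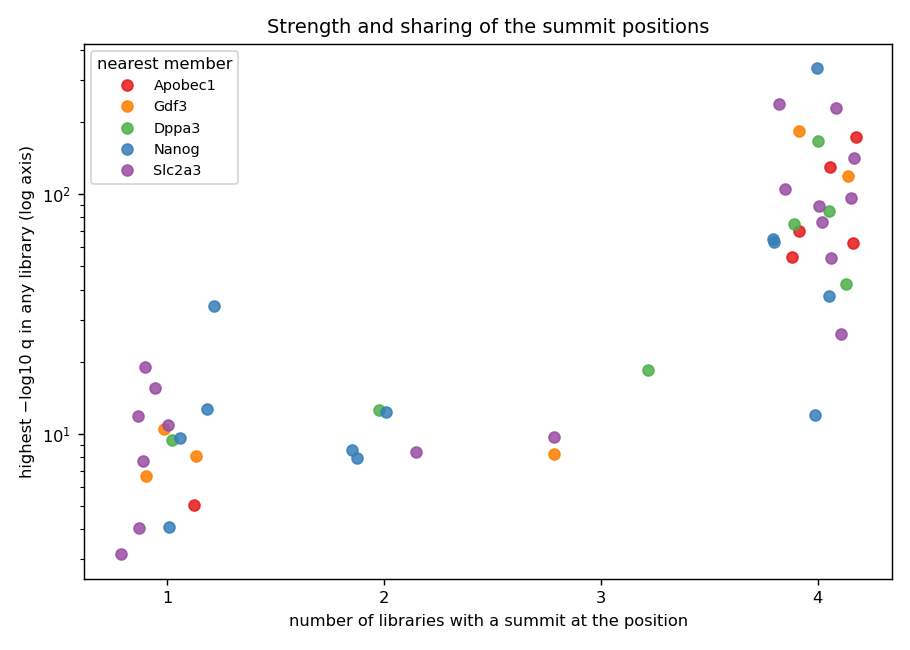
Strength and sharing of the 49 positions. Each point is a position, coloured by its nearest member gene; the x axis gives in how many libraries it had a summit, with a small sideways shift for legibility, and the y axis the highest −log10 q in any library on a log axis. Points at 4 libraries run from 12.0 to 335, and those at 1 library from 3.14 to 34.2.

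To set the libraries side by side at the 25 shared positions, the log2 pileup of each library was scaled by its median over 39356 positions shared on autosomes other than chromosome 11. On this scale 0 is the typical shared CTCF position of that library. The median of the 25 was 0.04 in Inv:Del(CBS7-10), 0.25 in Inv, 0.00 in Del(CBS8-10) and −0.32 in Ins. The local background around the 25 was above that at all shared positions, with medians of 7.72 against 5.20 fragments in Inv:Del(CBS7-10), 1.60 against 0.840 in Inv, 3.0 against 1.60 in Del(CBS8-10) and 5.72 against 3.08 in Ins. The −log10 q at the 25, with that background, had medians of 76.2 against 100.0 in Inv:Del(CBS7-10), 19.8 against 19.5 in Inv, 17.2 against 23.9 in Del(CBS8-10) and 33.1 against 55.9 in Ins.

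The order of the positions by pileup was partly alike in the 4 libraries. As a description over 25 positions, which share their stretch of chromosome and its local background, Spearman's rho ran from 0.63 between Inv and Ins to 0.85 between Del(CBS8-10) and Ins. Over all 39356 shared positions it ran from 0.76 between Inv and Del(CBS8-10) to 0.90 between Del(CBS8-10) and Ins. Each pair of libraries had a lower rho over the 25 positions than over all shared positions. Steadiest were 122624705 before Dppa3, where the scaled log2 pileup stayed between −0.77 and −0.39, and 122699857 and 122798125, which both ranged over 0.43. Also narrow in range were 122804656 past Slc2a3 (0.97 to 1.42) and 122605666 in Gdf3 (0.41 to 0.86). The highest and lowest library differed by at least 1 log2 at 8 of 25 positions, against 37.5% of all shared positions.

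**Figure D3:**
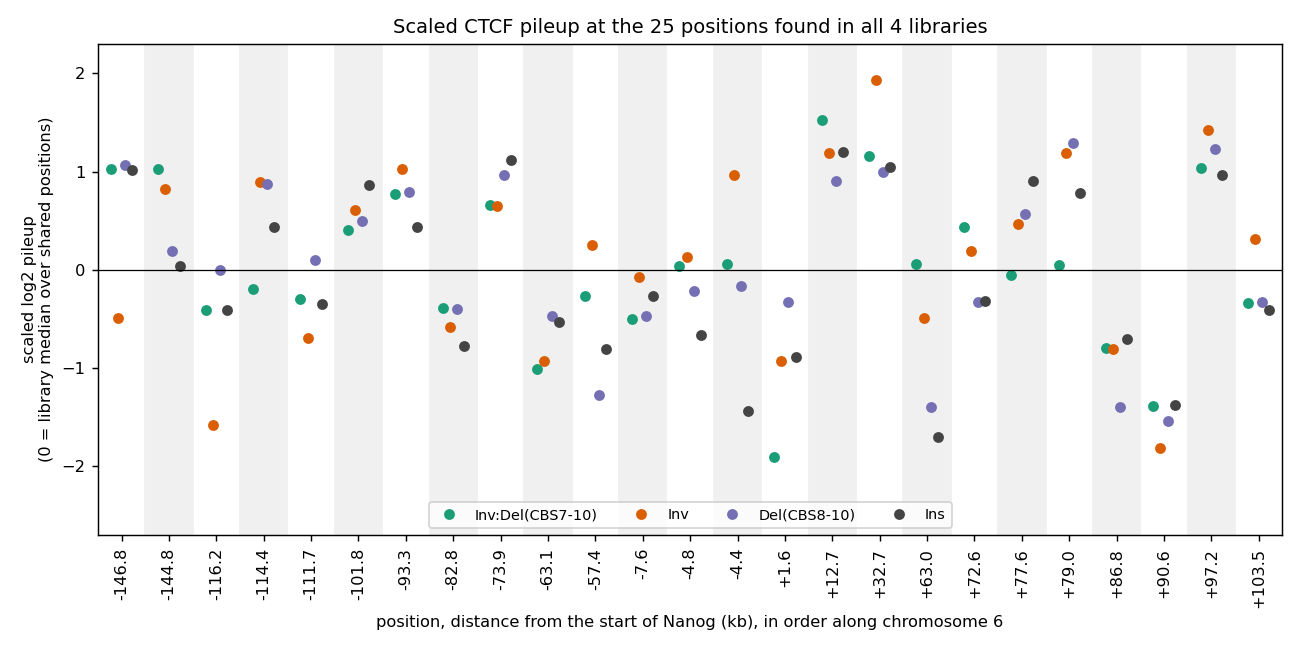
Scaled log2 pileup of each library at the 25 shared positions, in order along chromosome 6, labelled by the distance from the start of Nanog in kb. Points are single libraries and 0 is the library's median over all shared positions. The range of the 4 points has a median of 0.79 over the 25 positions, against 0.84 over all shared positions. It is widest, at 2.4, at 4.4 kb before Nanog.

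Each line with a changed array was compared with the Ins library, and Inv:Del(CBS7-10) with Inv. The 3 comparisons with Ins share that library. A difference of at least 1 log2 was taken as the limit of size, and each difference is given with a 95% interval from the counts of the pair of pileups. In Inv:Del(CBS7-10) against Ins, 2 of 25 positions were higher and 1 lower by that limit (3.54% and 7.14% of all shared positions). In Inv against Ins, 3 were higher and 2 lower (9.48% and 6.50%). In Del(CBS8-10) against Ins, 1 was higher and 0 lower (3.68% and 1.32%). In Inv:Del(CBS7-10) against Inv, 2 were higher and 2 lower (4.42% and 9.44%). The numbers are too small to set these shares apart from those of the genome. The median difference over the 25 was 0.05, 0.20, 0.07 and −0.09 in the same 4 comparisons, against 0.04, 0.15, 0.08 and −0.14 over all shared positions.

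The position 4.40 kb before Nanog, 122703088, differed by the limit in 3 of the 4 comparisons. Its scaled log2 pileup was 0.06 in Inv:Del(CBS7-10), 0.97 in Inv, −0.16 in Del(CBS8-10) and −1.44 in Ins. The difference from Ins was 1.5 in Inv:Del(CBS7-10) (interval 0.86 to 2.2), 2.4 in Inv (1.64 to 3.19) and 1.28 in Del(CBS8-10) (0.42 to 2.14). All rest on the low Ins library, whose pileup there was 24, and with the genome background as the scale the Del(CBS8-10) difference was 0.75. The neighbouring 122702664, 0.42 kb away, differed from Ins by 0.70 in Inv:Del(CBS7-10) (interval 0.18 to 1.25), less than the limit.

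Within Slc2a3, 122770495 had a scaled log2 pileup of 0.06 in Inv:Del(CBS7-10), −0.49 in Inv, −1.40 in Del(CBS8-10) and −1.70 in Ins. The difference from Ins was 1.76 in Inv:Del(CBS7-10) (interval 1.07 to 2.53), 1.22 in Inv (0.15 to 2.25) and 0.30 in Del(CBS8-10) (−0.91 to 1.43). Both lines with an inverted array were thus above Ins by the limit. Whether they differ from Del(CBS8-10) was not tested. When summits had to lie within 50 bp to be matched, a setting that breaks up such spread positions, 23 positions in place of 25 were shared by all 4 libraries.

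At 122591324 in Apobec1 the Inv library was low. Its scaled log2 pileup was −1.58 in Inv and −0.41 in Ins, a difference of −1.18 (interval −2.57 to −0.03). Inv:Del(CBS7-10) stood 1.17 above Inv there (0.07 to 2.53). With the genome background as the scale both differences were under the limit, at −0.63 for Inv against Ins and 0.80 for Inv:Del(CBS7-10) against Inv, and in fold they were −0.89 and 1.04. At other positions past the limit, Inv stood 1.06 above Ins at 122650115 past Dppa3 (0.27 to 1.84), and Inv:Del(CBS7-10) stood below Ins by −1.02 at 122709036 in Nanog (−1.77 to −0.27). Inv:Del(CBS7-10) was also below Inv at 122593097 in Apobec1 (−1.08, interval −1.63 to −0.51) and at 122786444 in Slc2a3 (−1.14, interval −1.64 to −0.63). In fold, the differences were 0.53 at 122650115, −0.54 at 122709036, −1.06 at 122593097 and −0.89 at 122786444, so that 1 of these 4 stayed past the limit. With the genome background as the scale, the difference at 122709036 was −0.85.

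**Figure D4:**
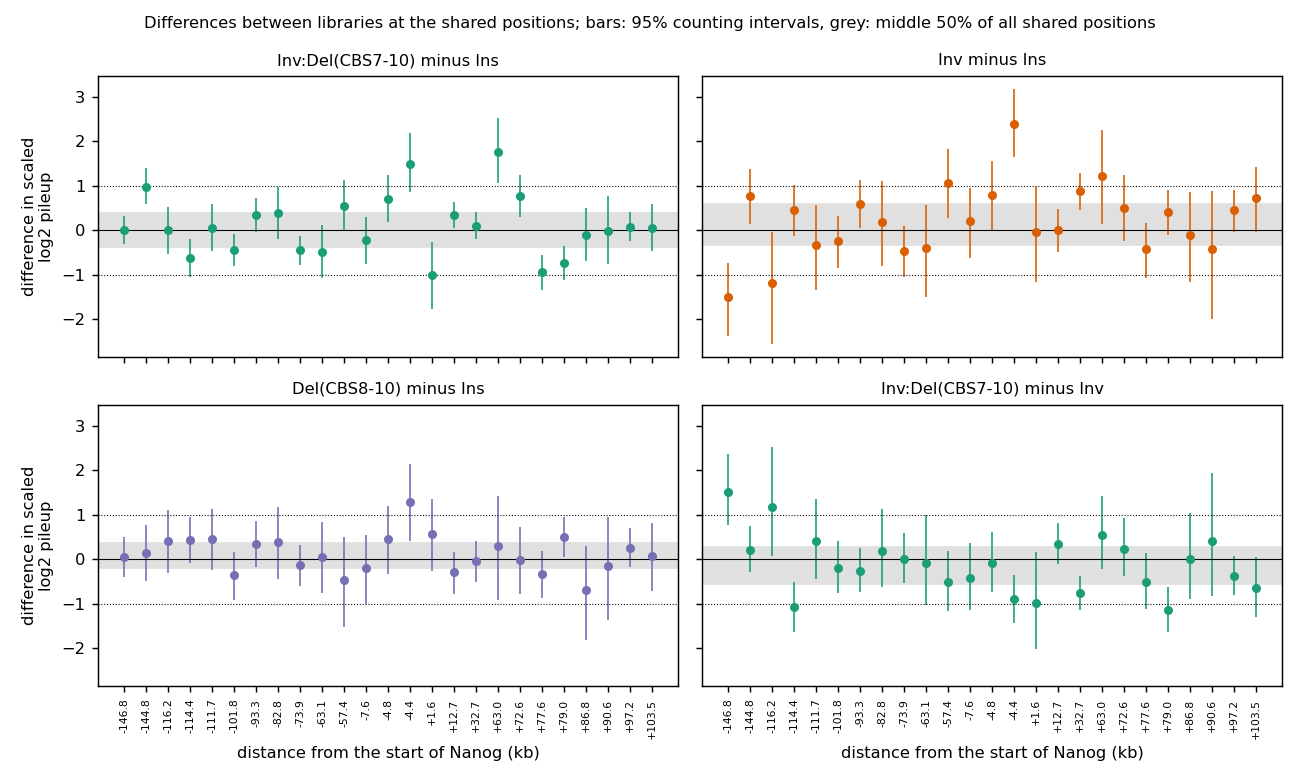
Differences in scaled log2 pileup between pairs of libraries at the 25 shared positions, labelled by distance from the start of Nanog in kb. Bars are 95% counting intervals, dotted lines the limit of 1 log2, and the grey band the middle 50% of all 39356 shared positions. The position 4.4 kb before Nanog lies above the limit in the 3 comparisons with Ins, at 1.5, 2.4 and 1.28.

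Other genes of the same families and surroundings were read for context, from lists chosen with earlier results of these data known. All 19 RefSeq genes from 100 kb before to 100 kb after the 5 genes had a summit within 20 kb in each library, led in Ins by Necap1 and the neighbouring pseudogene Gm5316 (both −log10 q 142, from the same summit), then Nanog and Slc2a3 (135). So did 12 of 12 naive pluripotency factors, led in Ins by Esrrb (−log10 q 170), Sox2 (152) and Tbx3 (107). Of the Nodal and Gdf signalling genes 10 of 10 did, led by the Nodal antagonist Lefty2 (213) and the activin receptors Acvr1b (171) and Acvr2b (123). The facilitative glucose transporters did in 7 of 7 cases, led by Slc2a2 (216), Slc2a3 (135) and Slc2a5 (135). The cytidine deaminases did in 5 of 5 cases, led by Apobec2 (224), Apobec4 (180) and Apobec3 (138). Of the developmental pluripotency associated genes 4 of 4 did, led by Dppa5a (198), Dppa3 (133) and Dppa2 (92.3). At least 71.3% of all genes had such a summit in each library, so these counts set no list apart.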

How the data were processed

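The authors deposited 1 peak list per library, and nothing was pooled. Tools listed in the submitters' processing notes are MACS2 2.2.7.1, Bowtie2 2.4.5, bedtools 2.30.0, cutadapt 4.1 and Picard, with the build mm10; the sources used here do not give their settings, the read filters or a control. Each deposited peak has an interval, a summit, a fold over local background, a −log10 p, a −log10 q and a score, which is 10 times the −log10 q made whole. The fold and the −log10 values compare a peak with its own library and so depend on depth. Gene spans are those of RefSeq GRCm38.p6, which gives no exons here. The build was checked on chromosome 6, where 4.04% of summits lay within 150 bp of an end of a protein-coding gene, against a median of 0.748% with the genes slid along by up to 50 kb. Positions are counted from 1. RefSeq promoter windows matched Nanog and Apobec1, and none matched Gdf3, Dppa3 or Slc2a3.

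The pileup and the local background were solved from fold and −log10 p, taking the fold as pileup plus 1 over background plus 1. This gave a whole pileup for 100.0% of the peaks of each list within a tolerance of 0.001, wider for very high −log10 p, and was tested on simulated data. Like peaks are those within 20% of the −log10 q on autosomes other than chromosome 11. Genes of chromosome 11, Slc2a4 among them, were left out of the gene counts, and Dppa1 was not matched. Python 3.11.15, NumPy 2.4.6, pandas 2.3.3, SciPy 1.17.1 and Matplotlib 3.10.9 were used.

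The members and gene lists were chosen with earlier results of these data known. Named are the 5 genes, summits within 20 kb of them, a neighbouring gene, and the 3 genes of each list with the highest −log10 q in Ins. The values of 1 gene and of the positions within it are not reported here, though counts include them. Leaving out the Inv library and searching the octamer and Sox element were chosen after the data were seen. Alternatives were other matching distances (50 and 250 bp) or overlap of peaks, stricter lists, windows of 10 and 50 kb, other scalings, and fold in place of pileup.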

Additional observations from a re-analysis of the deposited data

How the results depend on the processing

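No paired analysis was possible because each genotype has 1 library. The 49 positions and the 25 shared by all libraries stayed within 1.5 times under matching at 50 or 250 bp, overlap of peaks, windows of 10 and 50 kb, and without the Inv library. With peaks of −log10 q 10 or more alone, the shared positions were 14 and the Inv summits 19. In the lists of the 20000 strongest peaks there were 15 positions, 5 of them shared, and 9 summits in Inv:Del(CBS7-10), 11 in Inv, 9 in Del(CBS8-10) and 10 in Ins; shorter lists hold fewer peaks by construction.

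With the genome background as the scale, positions at least 1 log2 higher and lower were 3 and 0 in Inv:Del(CBS7-10) against Ins, 10 and 0 in Inv against Ins, 0 and 1 in Del(CBS8-10) against Ins, and 1 and 6 in Inv:Del(CBS7-10) against Inv. With fold, the lower ones were 0 in Inv:Del(CBS7-10) against Ins and 0 in Inv against Ins, and the higher ones 1 in Inv:Del(CBS7-10) against Inv. The cause was not tested. No difference past the limit changed sign under these scalings or that of chromosome 6. Of 100 single differences, 13 left their counting interval with the genome background, 9 with fold and 0 with chromosome 6.

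The share of all genes with a summit within 10 kb was 69.0% in Inv:Del(CBS7-10), 60.6% in Inv, 63.9% in Del(CBS8-10) and 68.0% in Ins, and of protein-coding genes within 20 kb it was 87.3%, 83.1%, 85.2% and 86.8% in the same libraries. The thin Inv library limits what its missing summits show.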
